A study of Mus musculus with 8 samples.

Results

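Rag1, Rag2, Dntt and Ptcra, 4 genes that thymocytes use to assemble and test their antigen receptors, were followed through an early and a later double-positive stage with and without Hdac3. They were chosen by name from the 23278 genes listed, and all 4 were present and tested in each of the 4 deposited tables. RNA was sequenced from sorted GFP+ CD4+CD8+ thymocytes of C57BL/6 mice. DP1 cells had low CD5 and low TCRβ, and DP2 cells had high CD5 and intermediate TCRβ. WT animals carried Hdac3+/+ and Hdac3KO animals carried Hdac3F/F with LCK-Cre, a recombinase driven by LCK sequences that act in the T lineage. The labels do not make clear whether the WT animals also carried Cre, nor do they say what the GFP reports or how old the animals were. The 4 groups held 2 libraries each, 8 in all, made from RNA pools.

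RAG1 and RAG2 together form the recombinase that cuts DNA at the signal sequences beside V, D and J segments. TdT, the product of Dntt, adds nucleotides without a template to the cut ends before they are joined. Ptcra encodes pre-Tα, the chain that pairs with a new TCRβ chain as the pre-TCR in double-negative cells, before the TCRα locus is rearranged. Double-positive thymocytes express the recombinase while they rearrange TCRα, and a positively selecting TCR signal is known to end this expression. Hdac3 is a histone deacetylase that works within the corepressor complexes built on NCoR and SMRT.

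Rag1 and Rag2 lie tail to tail on mouse chromosome 2 of mm10, Rag1 on the minus strand at 101638282 to 101649501 and Rag2 on the plus strand at 101624718 to 101632529 in GENCODE M21, with 5752 bases between them. A further gene, B230118H07Rik, runs on the minus strand from 101649532 to 101560781 in that annotation and so overlaps both. In the deposited tables Rag2 and B230118H07Rik share 1 locus, 101560781 to 101632528. Rag1 has a separate locus there, 101638252 to 101649532, which the deposited locus of B230118H07Rik does not reach. The library kit keeps strand, but whether the counting used it is not given in the sources used here, so reads of these overlapping genes may not be told apart. Dntt lies on chromosome 19, plus strand, at 41029275 to 41059525, and Ptcra on chromosome 17, minus strand, at 46755663 to 46763712. All 4 are protein-coding, and none lies on a sex chromosome.

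The 250 bases before each gene's RefSeq start (GRCm38.p6, gene strand, 5′ to 3′) are shown because the genes start from separate promoters, 2 of them in 1 locus. Capitals mark matches, on either strand, to an E-box of the kind E proteins bind (CAGNTG), to the core of the RUNX site (TGTGGT) and to the CCAAT box (CCAAT).
Rag1 promoter, chr2:101649533-101649782, minus strand: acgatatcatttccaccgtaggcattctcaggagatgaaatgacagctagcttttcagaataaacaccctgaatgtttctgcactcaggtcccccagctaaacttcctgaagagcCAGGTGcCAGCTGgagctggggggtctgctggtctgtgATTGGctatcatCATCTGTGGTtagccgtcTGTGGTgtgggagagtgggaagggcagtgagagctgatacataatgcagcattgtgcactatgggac
Rag2 promoter, chr2:101624462-101624711, plus strand: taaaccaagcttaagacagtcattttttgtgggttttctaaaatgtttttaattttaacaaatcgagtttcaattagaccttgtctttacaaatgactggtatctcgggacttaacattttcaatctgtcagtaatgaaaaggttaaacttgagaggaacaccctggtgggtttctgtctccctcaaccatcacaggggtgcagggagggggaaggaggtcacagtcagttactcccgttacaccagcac
Dntt promoter, chr19:41029025-41029274, plus strand: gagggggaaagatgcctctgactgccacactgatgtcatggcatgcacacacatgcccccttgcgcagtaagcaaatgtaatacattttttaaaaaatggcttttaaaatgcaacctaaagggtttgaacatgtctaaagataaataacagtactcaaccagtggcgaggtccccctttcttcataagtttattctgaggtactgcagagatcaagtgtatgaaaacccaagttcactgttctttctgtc
Ptcra promoter, chr17:46763713-46763962, minus strand: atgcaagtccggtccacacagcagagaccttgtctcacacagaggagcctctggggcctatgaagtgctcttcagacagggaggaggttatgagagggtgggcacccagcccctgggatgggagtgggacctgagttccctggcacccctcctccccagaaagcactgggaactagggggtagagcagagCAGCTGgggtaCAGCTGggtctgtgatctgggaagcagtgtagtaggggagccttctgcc

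The Rag1 window held 3 E-box matches, 2 RUNX matches and 1 CCAAT match, of which 1 E-box and 1 RUNX match share 2 bases. Ptcra had 2 E-box matches, at -60 to -55 and -49 to -44 counted from the start, and neither of the other motifs. The Rag2 and Dntt windows held none of these letters. Among 32536 different windows of the same length, 44.9% held at least 1 such E-box and 13.2% at least 2. At least 3 were in 3.26%, while 14.0% held the RUNX core and 33.8% the CCAAT box. G and C made up 60.4% of the Ptcra window and between 41.2% and 50.8% of the others. A match is a description of letters, not a measured binding site.

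The values are FPKM, fragments scaled by transcript length and library size, of which the tables give 1 per gene and group. Each group stands in 1 table that compares genotypes and in 1 that compares stages, and values differ between them because each table was scaled by itself. Calls use a threshold of 0.05 on the deposited q. The ± after a log2 change is its standard error (SE), recovered from the p in the table. No spread between the 2 libraries of a group could be computed, the depth per library is unknown, and p-values rest on these libraries alone. Hdac3 left 11.7 FPKM in Hdac3KO DP1 against 38.1 in WT, and 15.4 against 29.7 in DP2, in the authors' deposited tables (q = 0.000879 and 0.0131). WT and Hdac3KO also differed in sex-linked RNA. Xist was at 0.0945 and 0.243 FPKM in WT DP1 and DP2 and at 208 and 139 in Hdac3KO in the authors' deposited tables, and the Y-linked Kdm5d at 20.0 and 34.6 against 0.264 and 0.322. Genotype and sex cannot be told apart in the genotype comparisons. Sex-linked RNA also differed between the stages within each genotype. The Y-linked Ddx3y rose from 64.5 to 153.7 FPKM between the stages of WT (q = 0.000835) and Xist fell from 209 to 126.7 between those of Hdac3KO (q = 0.0337), while Kdm5d in WT, at 22.6 and 33.7, did not pass (q = 0.125), in the authors' deposited tables. The part of these differences in the stage comparisons was not tested.

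Rag1 and Dntt were among the most abundant RNAs of these cells. In the genotype tables, Rag1 was at 1199 FPKM in WT DP1, 2655 in Hdac3KO DP1, 671 in WT DP2 and 3006 in Hdac3KO DP2 (authors' deposited tables). Both Hdac3KO values lay above both WT values. Rag1 stood 63rd and 76th among all genes in WT DP1 and DP2, and 15th and 19th in Hdac3KO. Rag2 was at 160.4, 209.7, 95.9 and 201 FPKM in the same order (authors' deposited tables). Its lowest value was also WT DP2, and the other 3 were closer together. Rag1, per length, was 7.47 times as high as Rag2 in WT DP1 and 7.0 times in WT DP2, against 12.7 and 15.0 times in Hdac3KO DP1 and DP2.

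Dntt was at 1936 FPKM in WT DP1, 1302 in Hdac3KO DP1, 810.2 in WT DP2 and 1145.5 in Hdac3KO DP2 (authors' deposited tables). Ptcra was much lower, at 36.5, 26.3, 10.99 and 16.4 FPKM in the same order (authors' deposited tables). For both genes the 2 Hdac3KO values lay between the 2 WT values. In WT, Dntt exceeded Rag1 by 1.61 times in DP1 and 1.21 times in DP2, whereas in Hdac3KO Rag1 exceeded Dntt by 2.04 and 2.62 times. The stage tables gave the same order of groups for Rag2, Dntt and Ptcra and for Rag1, with group values at most 1.14 times apart between tables. Of the neighbouring groups in these orders that the tables compare, 2 pairs differed past the threshold, WT DP1 and WT DP2 for Rag2 and Hdac3KO DP1 and DP2 for Ptcra.

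**Figure D1:**
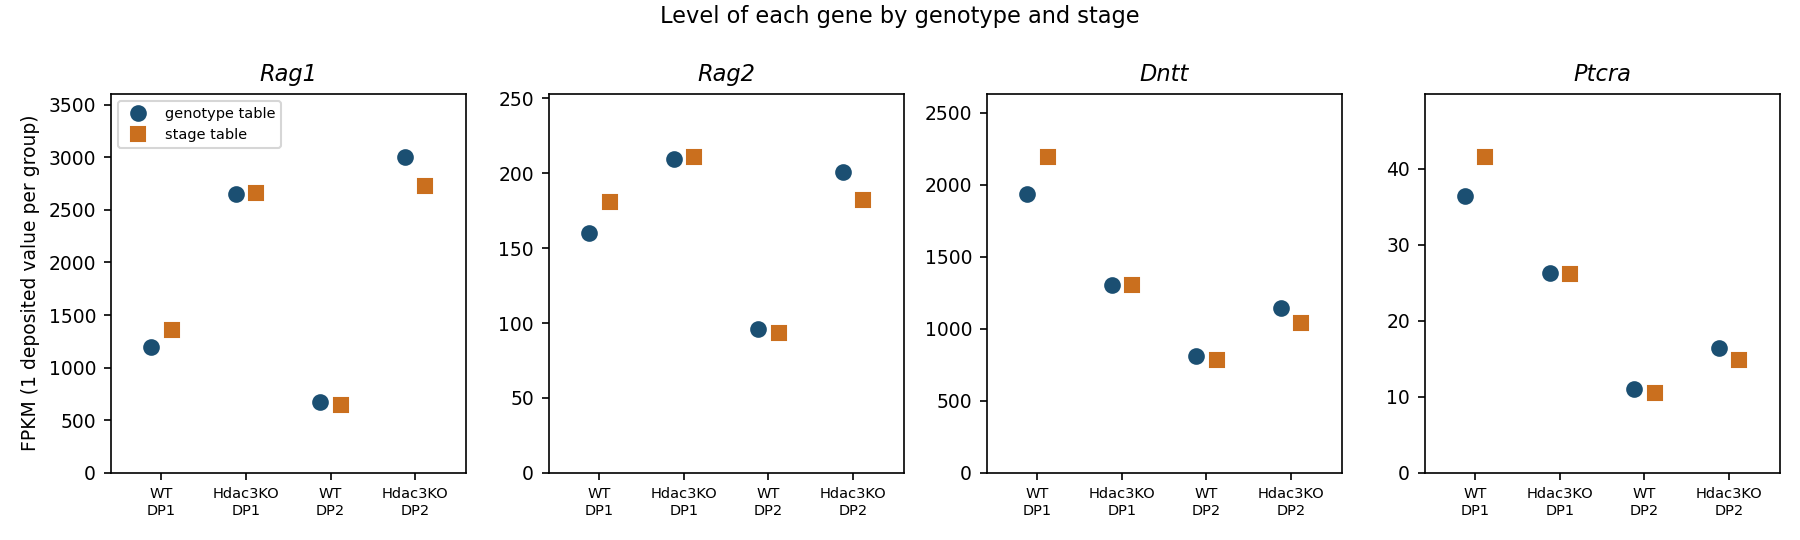
Deposited FPKM (y axis, from 0) of Rag1, Rag2, Dntt and Ptcra in the 4 groups (x axis), with 1 circle from the genotype table and 1 square from the stage table per group and no error bars, since 1 value per group is given. WT DP2 is the lowest group for all 4 genes, and Rag1 is highest in the 2 Hdac3KO groups.

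All 4 genes were lower in DP2 than in DP1 of WT cells, and 3 of them passed the test. This comparison asks what the genes do as CD5 and TCRβ rise in normal cells. Ptcra fell most, from 41.6 to 10.4 FPKM (authors' deposited table), which left 25.1% of the DP1 level (log2 change -1.99 ± 0.49, q = 0.000835). Dntt fell from 2195 to 783 FPKM (authors' deposited table), leaving 35.7% (-1.49 ± 0.42, q = 0.00499). Rag2 fell from 180.6 to 93.2 FPKM (authors' deposited table), leaving 51.6% (-0.95 ± 0.29, q = 0.00918). Rag1 had as large a difference as Rag2, 1353 against 648 FPKM (authors' deposited table), with an SE large enough that it did not pass (-1.06 ± 0.61, q = 0.202).

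Lower calls were common among all genes in this comparison, at 16.8% of the 10851 tested against 5.56% higher, and 22.3% were called in either direction. The median log2 change was -1.28 over the 4 genes and -0.27 over all tested genes. Only 174 of the tested genes with a finite fold change had a lower one than Ptcra, and 513 a lower one than Dntt. Among genes of 10 FPKM or more in each group the median change was -0.33. Measured from this median, Ptcra was at -1.66, Dntt at -1.16, Rag1 at -0.73 and Rag2 at -0.63, which ended the call of Rag2 (q = 0.12). Fold changes followed transcript length, with shorter transcripts lower, and Ptcra and Dntt have shorter transcripts (1283 and 2130 bases) than Rag2 and Rag1 (3424 and 6608 bases). With that trend removed the changes were -1.28 for Ptcra, -0.97 for Dntt, -0.65 for Rag2 and -1.06 for Rag1, and none passed (q = 0.063, 0.11, 0.12 and 0.26), with an SE for Ptcra that is an upper bound because its deposited p is the smallest given, 5e-05.

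In Hdac3KO cells Ptcra was the 1 gene of the 4 called between the stages. It fell from 26.1 to 14.9 FPKM (authors' deposited table), which left 56.8% (-0.82 ± 0.26, q = 0.0288). Dntt was at 1306 and 1040.1 FPKM (authors' deposited table), 79.7% of the DP1 level (-0.33 ± 0.23, q = 0.54). Rag2 was at 211 and 182 FPKM (authors' deposited table), or 86.4% (-0.21 ± 0.21, q = 0.744). Rag1 was at 2660.1 and 2732 FPKM (0.04 ± 0.35 on the log2 scale, q = 0.982 in the authors' deposited table). Of the 10231 genes tested here 6.43% were called, 4.65% lower and 1.78% higher. The median of the 4 genes was -0.27, and that of all tested genes 0.01. The call of Ptcra did not pass by the normal p of the deposited statistic (q = 0.44).

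**Figure D2:**
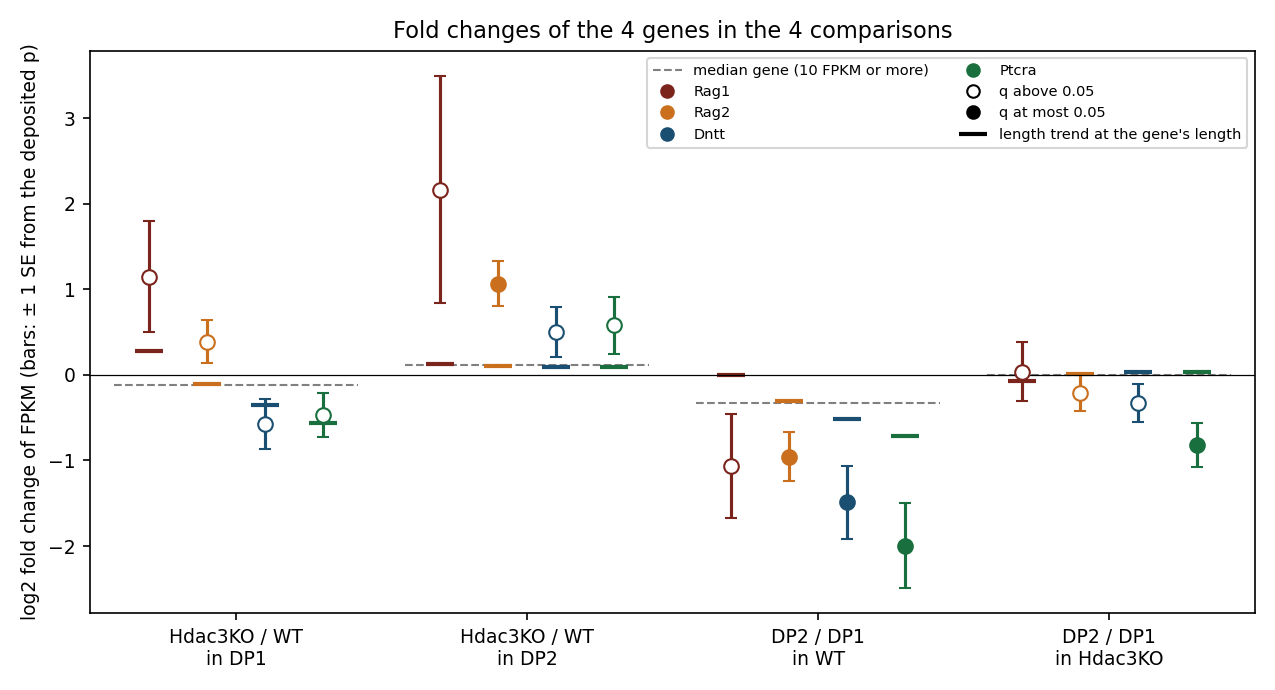
Log2 fold change of FPKM (y axis) for each gene in the 4 comparisons (x axis), with bars of ± 1 SE from the deposited p, filled points for q at most 0.05, dashed lines at the median gene and short lines at the length trend for that gene's length. Rag2, Dntt and Ptcra are filled below 0 for WT stages, Ptcra for Hdac3KO stages, and Rag2 above 0 for the genotypes in DP2.

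In DP1 the 2 recombinase genes were higher in Hdac3KO than in WT and Dntt and Ptcra were lower, and none of these differences passed. Rag1 differed 2.22-fold, from 1199 to 2655 FPKM (authors' deposited table), with a log2 change of 1.15 ± 0.65 (q = 0.191). Rag2 differed 1.31-fold (0.39 ± 0.25, q = 0.269 in the authors' deposited table). Dntt in Hdac3KO was at 67.3% of WT (-0.57 ± 0.29, q = 0.136) and Ptcra at 72.1% (-0.47 ± 0.26, q = 0.173), by the authors' deposited table. Of the 10511 genes tested 23.6% were called, 10.7% higher and 12.9% lower. Beside the count of 0 called members by the authors' Cuffdiff q, 1 of the 4, Dntt, had an unadjusted p under 0.05, and 0 passed by the normal p of the deposited statistic. The median gene lay at -0.11 and the fold changes followed length here too. With the length trend removed, Rag1 was at 0.86, Rag2 at 0.50, Dntt at -0.22 and Ptcra at 0.09, so the direction for Ptcra turned.

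In DP2 all 4 genes were higher in Hdac3KO than in WT, and Rag2 passed. Rag2 rose 2.09-fold, from 95.9 to 201 FPKM, a log2 change of 1.06 ± 0.26 (q = 0.00134 in the authors' deposited table). Its call was kept under all 9 alternatives. A q of 0.10 and a pseudocount of 1 reuse the deposited q and could not end that call. The change of Rag2 was 0.95 relative to the median gene and 0.96 with the length trend removed. Rag1 had the largest fold of the 4, 4.48, from 671 to 3006 FPKM (authors' deposited table), and did not pass (2.16 ± 1.33, q = 0.328). Dntt was at 810.2 and 1145.5 FPKM (authors' deposited table; 0.50 ± 0.29, q = 0.295) and Ptcra at 10.99 and 16.4 (0.58 ± 0.34, q = 0.29). Of the 10674 genes tested 10.8% were called, 6.44% higher and 4.32% lower. The median was 0.82 over the 4 genes and 0.10 over all tested genes, and genes of 10 FPKM or more had a median of 0.12. This comparison shares the WT DP2 libraries with the stage comparison in WT, so a low value there enters both.

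The errors of Rag1, set beside those of other abundant RNAs after its values were seen, were large. In DP2, 83 tested genes reached 500 FPKM in WT and in Hdac3KO, and the SE of their log2 change had a median of 0.29, against 1.33 for Rag1. Of these genes 13, Rag1 included, had an SE at least that large. Only 73 tested genes with a finite fold had a higher fold change than Rag1, and of the 74 that include it 37 were called (50%, in a set alike in fold and not in error). In the WT stage comparison the SE of Rag1 was 0.61, with a median of 0.36 over 81 such genes, and 24 of them had one as large. The SE of Dntt, the other gene at such levels, was 0.29 in DP2. Whether the 2 libraries of a group differed in Rag1 was not tested, since the tables give no value per library.

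**Figure D3:**
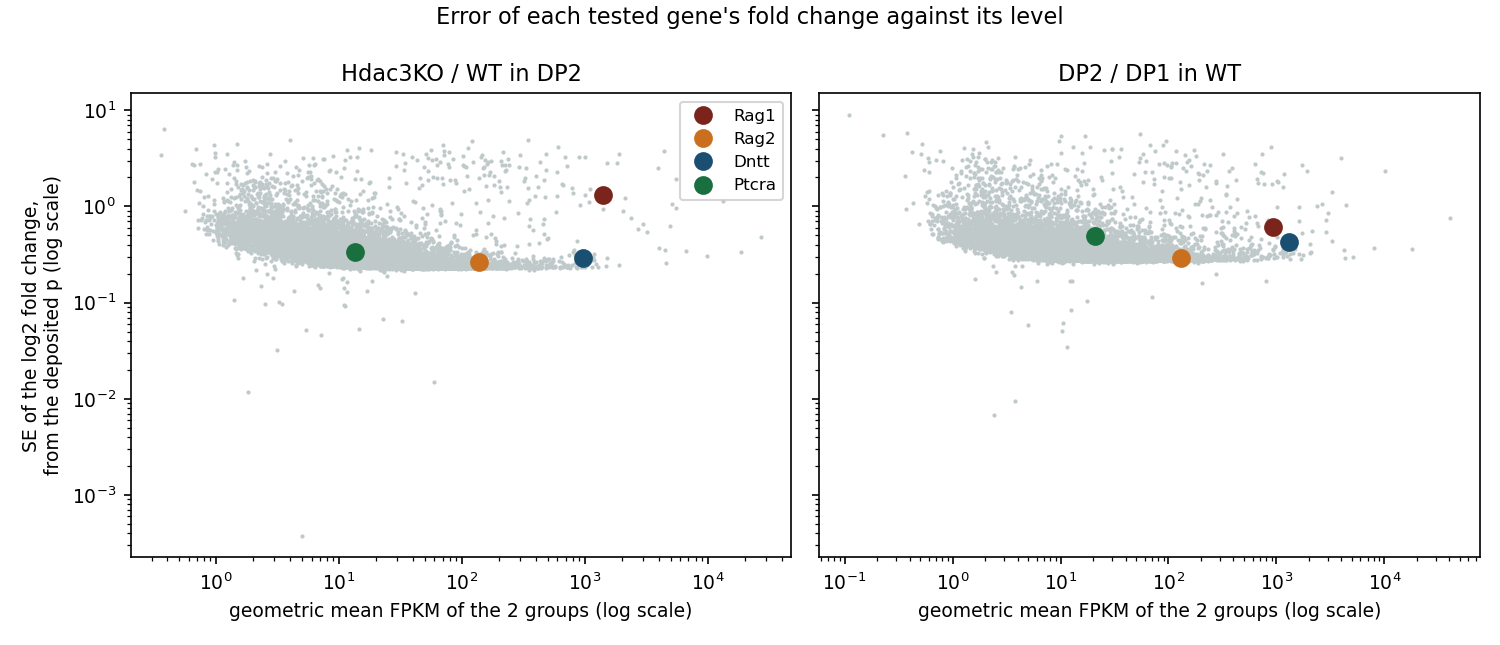
SE of the log2 fold change worked back from the deposited p (y axis, log scale) against the geometric mean FPKM of the 2 groups compared (x axis, log scale) for every tested gene (grey points), for genotypes in DP2 (left) and stages in WT (right), with the 4 genes in colour. Rag1 lies above most genes of its level, at 1.33 and 0.61, and Rag2 at 0.26 and 0.29.

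To ask whether genotype acted differently in DP1 and DP2, the log2 change in DP1 was subtracted from that in DP2; the 2 rest on separate libraries. The difference was above 0 for all 4 genes, as it was for 61.6% of the 10144 genes tested. It was 1.07 ± 0.41 for Dntt (q = 0.129), 1.05 ± 0.42 for Ptcra (q = 0.152), 0.68 ± 0.36 for Rag2 (q = 0.30) and 1.01 ± 1.48 for Rag1 (q = 0.759), by a two-sided normal test adjusted over all genes. None of the 4 passed, and 2.08% of all tested genes did, 0.897% above 0 and 1.18% below. At an unadjusted p under 0.05 there were 2 of the 4 (Dntt and Ptcra) and 1890 of all genes. Through the stage tables the differences were 1.16, 1.18, 0.74 and 1.10 in the same order, with 0 passing, beside 3.13% of all genes (2.07% above 0), and 3 under an unadjusted 0.05, as were 2208 of the 9969 genes tested by this route. The median gene lay at 0.25, and with the length trend removed the differences were 0.63 for Dntt, 0.40 for Ptcra, 0.46 for Rag2 and 1.17 for Rag1. A dependence on stage was not shown for any of the 4.

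Among the other genes near the Rag locus, B230118H07Rik was at 9.49 FPKM in WT DP1, 14.4 in Hdac3KO DP1, 7.31 in WT DP2 and 21.2 in Hdac3KO DP2 (authors' deposited tables), the same order of groups as Rag1, and none of its changes passed (q = 0.775, 0.384, 0.799 and 0.909 for genotypes in DP1 and DP2 and stages in WT and Hdac3KO). Traf6, which encodes a ubiquitin ligase of innate and TNF family signalling and lies beyond the start of Rag1, was between 20.9 and 29.5 FPKM in every group (authors' deposited tables) and was not called. Of the 5 neighbours found, 4 were tested in each comparison. Ldlrad3 fell from 19.1 to 10.5 FPKM in Hdac3KO DP1 and from 21.6 to 11.2 between the stages of WT (authors' deposited tables), and the call between the stages ended after centring on the median gene and with the length trend removed. No other call was made among them, and 1 of 4 in these comparisons stands beside 23.6% and 22.3% of all genes tested.

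Genes that cut, hold and join DNA ends alongside the recombinase split evenly in Hdac3KO DP1, with 4 higher and 4 lower calls among 21 tested, beside 10.7% and 12.9% of all genes. Dclre1c, whose product Artemis opens the hairpin ends, rose from 31.4 to 60.2 FPKM, and the ligase gene Lig4 from 55.9 to 89.9 (authors' deposited table). Polm, a polymerase related to TdT, rose from 3.46 to 6.40 FPKM, and Prkdc, the kinase that activates Artemis, from 12.3 to 20.7 (authors' deposited table). Hmgb2, a DNA-bending cofactor of the recombinase, fell from 1748 to 751 FPKM and Xrcc6, the Ku70 gene, from 339.7 to 172 (authors' deposited table). H2afx and Nhej1 also fell. With the length trend removed the split was 1 higher and 2 lower. The list median was -0.04 and that of all tested genes -0.10.

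In DP2 the genotypes differed in 2 of the 22 end-joining genes, beside 10.8% of all tested genes. Polm rose again, from 4.88 to 9.97 FPKM, and Rif1, which protects broken ends from resection, fell from 86.1 to 49.9 (authors' deposited table). Relative to the median gene and with the length trend removed the split was 0 higher and 2 lower. Between the stages of WT, 5 of 22 were lower and 1 was higher, beside 16.8% and 5.56% of all tested genes. The split was 5 higher and 3 lower after centring on the median gene and 2 and 4 with the length trend removed. Hmgb2 fell from 1972 to 516 FPKM, its relative Hmgb1 from 1777 to 751 and Xrcc6 from 385 to 139.8 (authors' deposited table). Poll, another polymerase of end joining, rose from 0.485 to 1.69 FPKM (authors' deposited table). In Hdac3KO 5 of 21 were lower between the stages and 0 higher, beside 4.65% and 1.78% of all tested genes. Among the 5 were Hmgb2, from 758 to 322 FPKM, and H2afx, from 125 to 42.8 (authors' deposited table). Medians were -0.14, -0.16 and -0.20 for the list in these 3 comparisons and 0.10, -0.27 and 0.01 for all tested genes.

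Pcna, the replication clamp and a partner of TdT, was called lower in all 4 comparisons. It fell from 927 to 442 FPKM in Hdac3KO DP1, from 302 to 183 in Hdac3KO DP2, from 1046 to 294 between the stages of WT and from 445 to 166 between those of Hdac3KO (authors' deposited tables). With the length trend removed it was no longer called in DP1 or between the stages of WT. The other 3 genes listed with it, Dnttip1, Dnttip2 and Tdp2, were called in none. Pcna also marks replicating cells; whether a change in the share of dividing cells had a part in the fall of Dntt and Ptcra in WT was not tested.

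Among 22 transcription factors and signalling genes known to act on these loci, 4 were higher and 1 lower in Hdac3KO DP1. The shares of all tested genes there were 10.7% and 12.9%. In Hdac3KO DP2, 3 of the 22 were higher and 3 lower, beside 6.44% and 4.32% of all tested genes. Id3, an inhibitor of the E proteins that bind E-boxes, fell to 9.04 FPKM in Hdac3KO DP1 against 29.9 in WT, and to 19.9 in DP2 against 39.0 (authors' deposited tables). Id2, of the same family, fell from 23.1 to 5.72 FPKM in DP2 (authors' deposited table). The E protein genes themselves were not called between genotypes, with Tcf3 at 68.4 and 66.4 FPKM in DP1 and 48.2 and 66.0 in DP2 (authors' deposited tables). Foxo1, a factor known to drive Rag transcription, rose from 6.44 to 12.5 FPKM in DP2, and the Ets factor gene Elf1 from 49.0 to 105.8 and Foxp1 from 19.0 to 39.7 in DP1 (authors' deposited tables). Runx1, a RUNX factor of thymocytes, rose from 22.6 to 40.3 FPKM in DP1 (authors' deposited table). Ikzf1 and Satb1, both known regulators of these genes, were not called in any of the 4 comparisons. The list medians were 0.18 and 0.17, beside -0.10 and 0.10 for all tested genes.

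Notch genes, whose signals switch on Ptcra in earlier thymocytes, were lower in DP2 than in DP1 of both genotypes, as Ptcra was. Whether the Notch genes had a part in the fall of Ptcra was not tested. Notch3 fell from 6.38 to 1.43 FPKM and Notch1 from 32.5 to 11.7 between the stages of WT (authors' deposited table). In Hdac3KO they fell from 6.20 to 3.69 and from 27.5 to 17.3 FPKM (authors' deposited table). Notch3 was also higher in Hdac3KO DP2 than in WT DP2, at 4.08 against 1.51 FPKM (authors' deposited table), and Rbpj, the DNA-binding partner of Notch, rose in both genotype comparisons. Between the stages of WT, Id2 rose from 3.47 to 22.4 FPKM, Lef1 from 70.6 to 135.8 and Gata3 from 23.0 to 40.3, while Tcf3 fell from 78.2 to 45.7 (authors' deposited table). That made 3 higher and 3 lower of 22, beside 5.56% and 16.8% of all tested genes. Relative to the median gene or with the length trend removed the split was 4 and 2. In Hdac3KO it was 1 higher, Id3, and 3 lower, beside 1.78% and 4.65% of all tested genes. Once the length trend was removed the split there was 1 and 1. The medians were -0.06 and -0.20, beside -0.27 and 0.01 for all tested genes.

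The CD3 chains that carry both the pre-TCR and the TCR were not called in any comparison. Of 14 genes of the pre-TCR complex and its first signalling steps, 3 were higher and 0 lower in Hdac3KO DP1, and 2 and 0 in Hdac3KO DP2, where 23.6% and 10.8% of all tested genes were called. Fyn, a Src family kinase gene, rose from 16.7 to 31.2 FPKM in DP1 and Ptprc, the CD45 gene, from 363 to 609 (authors' deposited table). In DP2 Vav1, which encodes an exchange factor downstream of the receptor, rose from 51.7 to 98.7 FPKM (authors' deposited table). Between the stages of WT the kinase genes Lck and Syk and the adaptor gene Lat fell and Fyn rose, 1 higher and 3 lower. Of all tested genes 5.56% were called higher and 16.8% lower there. The split of the list became 2 and 1 after centring on the median gene and 1 and 1 with the length trend removed. Syk, the kinase typical of pre-TCR signalling, fell from 11.8 to 5.14 FPKM (authors' deposited table). Between the stages of Hdac3KO 0 of the 14 were called by the Cuffdiff q at 0.05 or 0.10. Of all tested genes 6.43% were called there at 0.05. In the list 2 genes, Cd3g and Syk, had an unadjusted p under 0.05. List medians were 0.09, 0.43, -0.22 and 0.22 for genotypes in DP1 and DP2 and stages in WT and Hdac3KO, beside -0.10, 0.10, -0.27 and 0.01 for all tested genes. No TCR constant gene symbol from the list was matched to the tables.

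**Figure D4:**
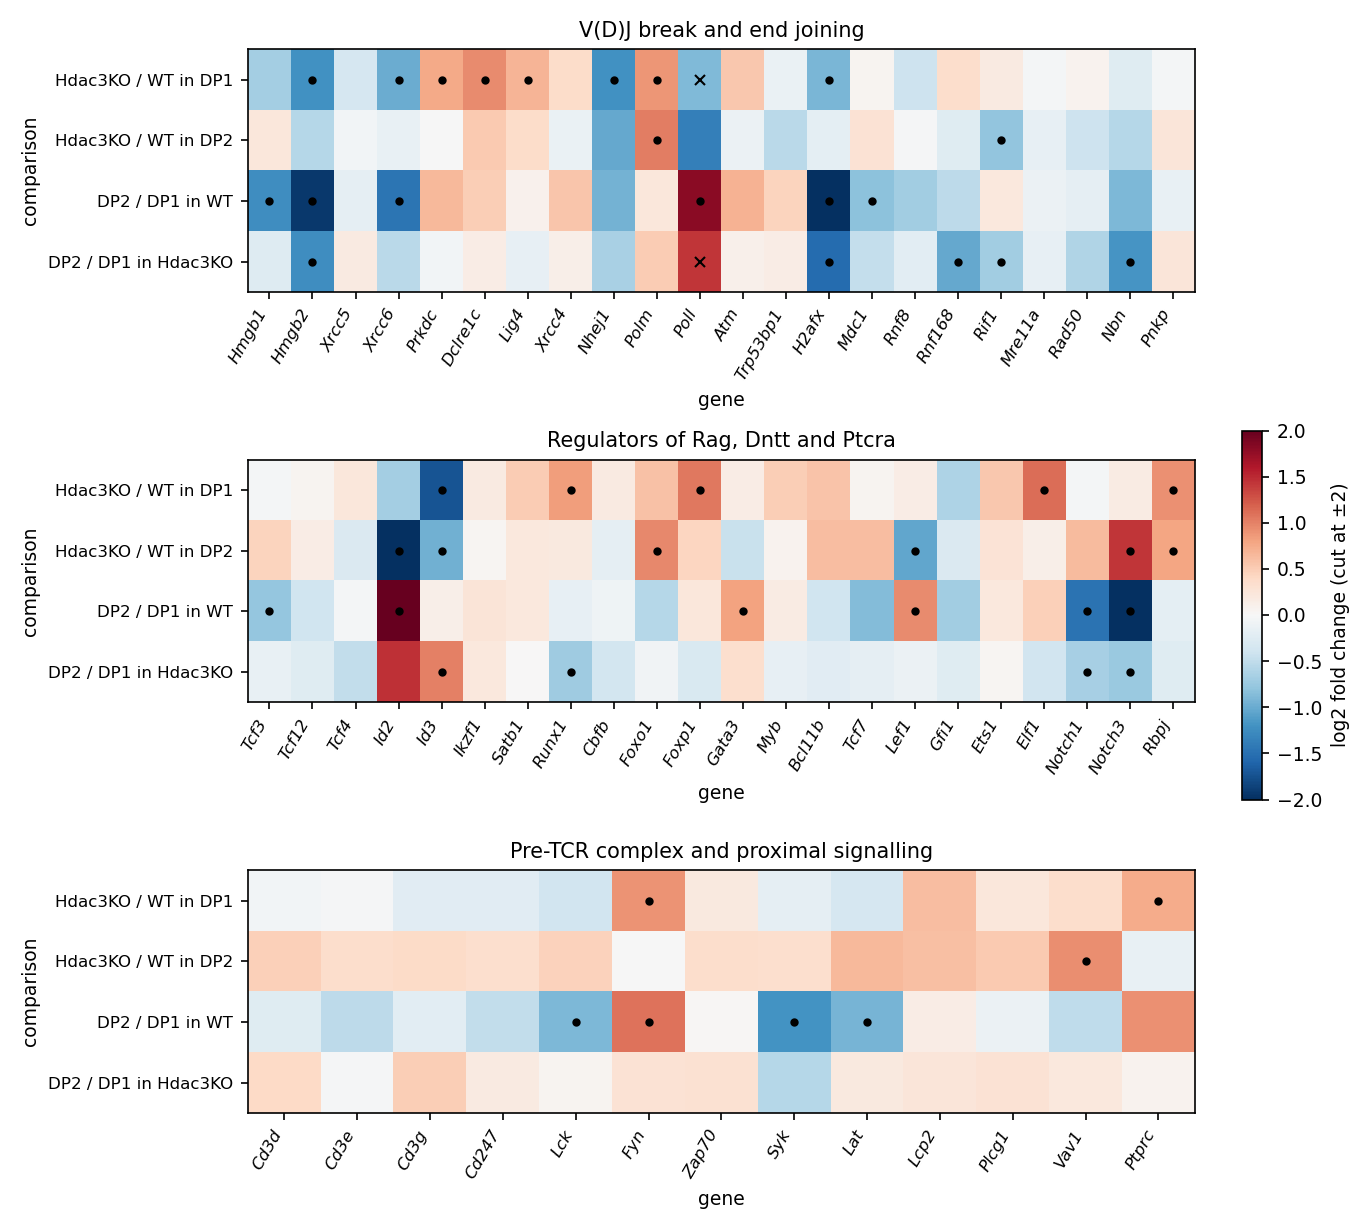
Log2 fold change (colour, cut at ±2) of genes (x axis) of 3 lists, 1 gene of the pre-TCR list not shown, in the 4 comparisons (y axis), with a dot for q at most 0.05 and a cross where the deposited table gives no test. Hmgb2 and H2afx are called lower in 3 of the 4 comparisons, Id3 is lower in both genotype comparisons, and no gene shown of the pre-TCR list is called between the stages of Hdac3KO.

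Markers of the double-positive stage were called in 3 of the 4 comparisons. In Hdac3KO DP1, where none of the 4 genes was called, 2 of 7 markers were higher, beside 10.7% of all tested genes. The 2 were Themis, from 283 to 862 FPKM, and Arpp21, from 347 to 652 (authors' deposited table). Of the 7, 5 were higher in Hdac3KO DP2 and 0 lower, beside 6.44% and 4.32% of all tested genes. Among the 5 were Cd8b1, from 639 to 1383 FPKM, and Cd4, from 208 to 392 (authors' deposited table). Both were among the 3 called lower in DP2 than in DP1 of WT, beside 16.8% of all tested genes. Between the stages of Hdac3KO 0 of the 7 were called by the Cuffdiff q (1, Arpp21, at an unadjusted p under 0.05). There 6.43% of all tested genes were called. Their summed level was 3094 and 3862 FPKM in WT and Hdac3KO DP1 and 2152 and 4009.6 in DP2 (authors' deposited tables). In bulk samples fewer cells of a type and less RNA per cell cannot be told apart, and the part of these shifts in the results for the 4 genes was not tested.

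Pro-B cells also express the recombinase and TdT, and double-negative thymocytes express Ptcra. Of 7 B cell markers only 2 had enough signal for a test, and 1 between the stages of WT; of these 0 were called by the Cuffdiff q and 0 had an unadjusted p under 0.05. The 7 markers' summed level was 9.64 and 10.1 in DP1 and 9.64 and 11.2 in DP2 (WT, Hdac3KO), with Cd79b the highest (authors' deposited tables). Vpreb1, a surrogate light chain gene, was at 0.464 and 4.62 FPKM in WT and Hdac3KO DP2 (authors' deposited table, q = 0.216). Of 7 double-negative markers found, Kit, Lyl1, Bcl11a, Mpzl2 and Igll1 were at most 1.45 FPKM throughout and had too little signal for a test. Il2ra rose in Hdac3KO, to 19.6 FPKM from 3.49 in DP1 and to 26.3 from 4.41 in DP2, and Hhex fell, from 47.8 to 8.53 and from 221 to 21.3 (authors' deposited tables). The single-positive marker Il7r was at 10.2 FPKM in WT DP2 and 0.653 in Hdac3KO DP2 (authors' deposited table, q = 0.0159), while Ccr7 rose in both genotype comparisons. Myeloid markers summed to 6.40 and 13.6 FPKM in DP1 and 8.98 and 22.4 in DP2 (WT, Hdac3KO), with the rise in Itgam. Itgam was called higher in both (q = 0.000879 and 0.00134), where 10.7% and 6.44% of all tested genes were (authors' deposited tables). Epithelial markers summed to between 9.32 and 16.9, erythroid ones to between 1.07 and 3.09, and those of γδ T and NK cells to between 0.508 and 1.77, in the genotype tables. The epithelial Psmb11 (q = 0.00154) and erythroid Alas2 (q = 0.0117) were called higher in Hdac3KO DP1 (authors' deposited table). Epcam, an epithelial marker, was called lower in DP2 than in DP1 of WT (q = 0.0357 in the authors' deposited table). No other member of these lists was called.

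The genes most like each of the 4 were found from the distance between their 4 log2 changes, each relative to the median gene, over 4876 genes tested in all tables with at least 10 FPKM. The 4 changes share libraries, so the distance is a description. Nearest to Rag1 were Hs6st1, Hsd17b11 and Epb4.1, at distances of 0.50, 0.62 and 0.65. Hs6st1 was called in DP2, at 1.80 (q = 0.00134 in the authors' deposited table), a smaller change than the 2.16 of Rag1, which was not. Nearest to Rag2 were Ppp1r9b, Fam78a and Whrn, at 0.25 to 0.26, and like Rag2 all 3 were called higher in Hdac3KO DP2 and lower in WT DP2 than DP1. Dntt was closest to Rangap1, Rpl23a and Rps29, at 0.18 to 0.20, and Ptcra to Ube2s, Ly6e and Anp32b, at 0.27 to 0.37.

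Among the 4 genes themselves, Dntt and Ptcra were the closest pair, at 0.71, and Dntt ranked 27th among the genes nearest to Ptcra. Rag1 and Rag2 were 1.36 apart, and Rag2 ranked 75th among the genes nearest to Rag1, with Rag1 at 1934th for Rag2. Rag2 was nearer to Dntt, at 1.24, than to Rag1. The distance of Rag1 to Rag2 came mostly from the genotype comparisons, where Rag1 stood at 1.26 and 2.05 relative to the median gene and Rag2 at 0.50 and 0.95. Between the stages of WT they stood at -0.73 and -0.63.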

How the data were processed

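Trimmomatic 0.32, TopHat2 2.0.11, Cuffdiff 2.1.1 and mm10 are named in the submitters' processing notes, and the order, settings, strand option and annotation are not given in the sources used here. The authors deposited 4 Cuffdiff tables, which give each gene 1 FPKM value for each group; scaling was done within a table. The deposited score is the test statistic of each comparison, and the deposited p-value and q-value are the authors' own. A recomputed Benjamini-Hochberg q differed from theirs by at most 5.26e-07.

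Log2 fold changes were computed from the FPKM without a pseudocount, and each SE is the size of that change over the standard normal deviate that the deposited p stands for. The difference between genotype effects used a two-sided normal test with Benjamini-Hochberg adjustment over all genes tested in both tables. That test and the removal of the length trend were checked on simulated data. The simulated noise was normal and drawn with the recovered SEs. Such a check covers the computation and cannot show whether those SEs are right. Transcript length is the longest in GENCODE M21. The trend is a lowess fit (fraction 0.3) to the genes of 10 FPKM or more in each group that had a length, at least 98.988% of them. There were 6 pathway lists and 8 marker lists. Without the 4 genes they name 126 symbols, and 114 were found under that name alone. Named from them are up to 4 called genes per list and comparison and, for the pathway lists, further members. The 3 genes nearest in their 4 changes were also named. The 4 genes and the lists were chosen with earlier results of these data known. Alternatives were a q of 0.01 or 0.10, a log2 change of at least 1, a minimum of 5 FPKM, a pseudocount of 1, centring on the median gene, removal of the length trend, adjustment over all 4 tables and the normal p of the deposited statistic. For the difference they also included the stage tables, SE multiplied by 1.5 and SE from the statistic. Python 3.11.15, pandas 2.3.3, scipy 1.17.1 and statsmodels 0.14.6 were used. Promoter sequences are from RefSeq, in which all 4 genes were found. Some members of the gene lists are counted and not reported here by name.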

Additional observations from a re-analysis of the deposited data

How the results depend on the processing

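No paired analysis was possible because the tables give 1 value per group and none per library, and for the same reason no library could be left out. Across the alternatives, 161 of 172 values of the 4 genes kept their direction and their side of the threshold. Part of this was fixed in advance. A q of 0.01, a minimum log2 change or a larger SE keeps the direction and cannot add a call to an uncalled gene. In the WT stages 0 of the 4 genes were called with the length trend removed and 1 by the normal p of the deposited statistic, where 3 were called in the main test. In the Hdac3KO stages the 1 call, Ptcra, became 0 at a q of 0.01, 0 with a log2 change of at least 1 and 0 by the normal p of the statistic. For Ptcra in DP1 the length trend turned the genotype change to 0.0875 (q = 0.873), from -0.47. The number of members called in DP1, in DP2 and for the difference between stages was the same in all alternatives run for them. Why the length trend and the statistic change the calls was not tested.

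Counts over all genes moved by more than 1.5 times in these cases. In DP1, 2478 calls became 1300 at q of 0.01, 1208 with a log2 change of at least 1, 1499 with the length trend removed and 1544 by the statistic. In DP2, 1148 became 618 and 699 by the first 2 of these. For stages in WT, 2421 became 1221, 1593, 1403 and 1386 by the 4, and in Hdac3KO 658 became 434 and 431 by the first 2. The 211 differences became 0 with SE multiplied by 1.5, 533 with SE from the statistic, 369 after centring, 103 with the length trend removed and 581 at 0.10. Centring also turned the split of higher and lower calls from 1120 and 1358 to 1431 and 941 in DP1, from 687 and 461 to 464 and 612 in DP2 and from 603 and 1818 to 1181 and 703 for stages in WT. With the length trend removed the split was 916 and 583, 464 and 605, and 906 and 497 in these 3 comparisons. By the normal p of the statistic it was 246 and 583 in DP2 and 540 and 846 for stages in WT, and with a log2 change of at least 1 it was 345 and 354 in DP2. The differences between stages, 91 above and 120 below 0, became 34 and 335 after centring, 8 and 95 with the length trend removed, 134 and 399 with SE from the statistic and 206 and 106 through the stage tables. Depth per library is unknown, so no limit of detection is given.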
